A study of Mus musculus with 3 samples.

Results

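The genes described here are the nuclear-encoded subunits of the oxidative phosphorylation system, 85 of the 32285 genes counted. They were chosen by symbol alone: every gene whose symbol starts with Ndufa, Ndufb, Ndufc, Ndufs, Ndufv, Sdh, Uqcr, Cox4i, Cox5, Cox6, Cox7, Cox8 or Atp5, without the assembly factors Ndufaf and Sdhaf and without symbols marked as pseudogenes. Assigned by symbol, complex I contributed 38 genes, complex II 4, complex III 8, complex IV 18 and complex V 17. A single member had no transcript in any library.

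Oxidative phosphorylation takes place in the inner mitochondrial membrane. Complexes I and II accept electrons from NADH and succinate, complex III passes them to cytochrome c, and complex IV reduces oxygen, while complex V, the ATP synthase, uses the resulting proton gradient to make ATP. Most subunits are encoded in the nucleus and imported, and a small set of core subunits is encoded by mitochondrial DNA. In macrophages, the balance between oxidative phosphorylation and glycolysis is known to differ between inflammatory and alternatively activated states.

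Single-cell 3′ transcriptomes were made from dorsal skin of C57Bl/6 male mice aged 8 weeks and in telogen, the resting phase of the hair cycle, with immune cells enriched on CD45+ magnetic beads. WT_Ctrl was wild-type skin without irradiation, and WT_UV was wild-type skin after 3 exposures to ultraviolet B (UVB). RP_UV was UVB-exposed skin of RP mice (Rosa26-rtTA, Tre-Ptgs2), in which rat Ptgs2, the gene of Cox-2, is overexpressed globally under doxycycline. The paper reports that the Cox-2 overexpression lay mainly in keratinocytes of the epidermis and in immune cells that had infiltrated the skin. Each group was 1 library, so no test or p-value was computed, no difference had a replicate check, and the animal, the library and the group cannot be told apart. The level of the rat transgene and RP skin without UVB were not analysed here, so RP_UV differs from WT_Ctrl by both UVB and transgene.

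Filtering left 5309 WT_Ctrl, 5225 WT_UV and 6070 RP_UV cells, with medians of 4246, 10557 and 3774 unique transcripts (UMIs) per cell. The names of the raw files carry one code and date for WT_Ctrl and RP_UV and another for WT_UV, which was also sequenced more deeply. In both comparisons that use WT_UV, the group cannot be told apart from depth or from what this code and date stand for. Pairs of libraries shared 7 to 9 cell barcodes. Cell classes were assigned from marker genes and are to be read as macrophage-like, keratinocyte-like and so on. They left 6.57%, 4.73% and 11.2% of cells unnamed, and despite the CD45+ enrichment named immune classes made up 61.7%, 84% and 56.8% of cells.

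Levels are given in CPM, the UMIs of a gene or group of genes per 1000000 UMIs of all genes, summed over the cells of a class in a library. Such a level is a share, so a higher share of these genes and a lower share of other transcripts cannot be told apart. Intervals in parentheses are 95% counting intervals and cover counting error only. Many members have processed pseudogenes elsewhere in the genome that can draw reads, so single-gene values carry that uncertainty.

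Promoter sequence of the members was read from RefSeq (GRCm38.p6, the same assembly as mm10). Of the 85 members, 69 had an entry, a window of 250 bases before to 50 bases after the start of the gene. Nuclear respiratory factor 1 (NRF-1), a transcription factor known to act on many respiratory chain genes, binds a palindrome whose 8 central letters, CGCATGCG, read the same on both strands. These letters stood in 8 of the 69 windows (11.6%: Ndufa8, Atp5k, Cox6a1, Atp5l, Uqcrc1, Uqcr11, Atp5g2 and Ndufa11), against 517 of all 27025 promoter windows (1.91%). The following stretches of 40 bases show the 4 matches that lie, with their flanks, upstream of the start, with the motif in capitals.
Atp5g2 (chr15:102671065-102671104, minus strand): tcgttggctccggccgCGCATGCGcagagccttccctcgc
Atp5k (chr5:108434425-108434464, minus strand): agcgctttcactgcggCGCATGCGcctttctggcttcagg
Cox6a1 (chr5:115349096-115349135, minus strand): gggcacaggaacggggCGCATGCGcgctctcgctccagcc
Ndufa11 (chr17:56717687-56717726, plus strand): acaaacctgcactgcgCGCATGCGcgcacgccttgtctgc
The motif began 41 bases upstream of the start in Atp5g2, 49 in Atp5k, 161 in Cox6a1 and 59 in Ndufa11. A motif for GA-binding protein (GABP), CCGGAAGT or ACTTCCGG on the other strand, stood in 5 windows (7.25%: Ndufs3, Uqcrh, Uqcr11, Atp5h and Cox8a), against 1081 of all windows (4%). The 250 bases upstream of Cox5a, the member with the largest difference between RP_UV and WT_Ctrl in macrophages, held neither motif and are shown for that reason (chr9:57520982-57521231, plus strand).
Cox5a: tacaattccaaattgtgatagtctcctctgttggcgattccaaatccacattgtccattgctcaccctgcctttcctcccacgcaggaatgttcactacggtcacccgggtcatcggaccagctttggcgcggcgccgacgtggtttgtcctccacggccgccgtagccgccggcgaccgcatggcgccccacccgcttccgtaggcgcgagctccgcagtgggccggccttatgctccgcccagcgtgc
A match is a description of letters only. Members that carried the NRF-1 motif had different orders over the libraries, since Atp5k was highest in WT_UV macrophages and Atp5g2 and Ndufa8 were highest in RP_UV macrophages, as described below.

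Summed over all kept cells, the members took 18473 CPM in WT_Ctrl, 20392 in WT_UV and 24018 in RP_UV. The order was the same in macrophages or monocytes, the largest class, where the sums were 16493 (16405-16581), 19605 (19556-19654) and 21524 (21446-21602). In macrophages WT_UV was 1.19-fold above WT_Ctrl (1.18-1.20) and RP_UV was 1.10-fold above WT_UV (1.09-1.10). RP_UV was 1.31-fold above WT_Ctrl (1.30-1.31), and these 2 libraries share the code and date in their raw file names. They were not alike in depth, with medians of 4661 UMIs in RP_UV and 3819 in WT_Ctrl macrophages. At matched depth the difference was smaller, as given with the depth bands below.

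**Figure D1:**
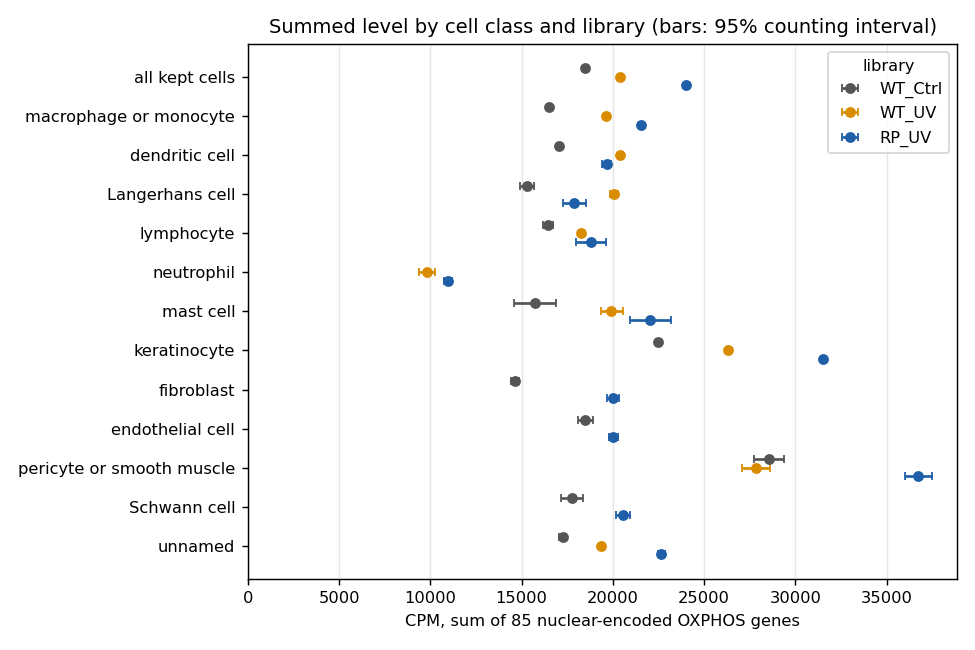
Summed level of the 85 genes in CPM (x axis) for each cell class (y axis) and library, with 95% counting intervals as bars. RP_UV was the highest library in most classes, for example at 31536 in keratinocytes, while dendritic and Langerhans cells were highest in WT_UV. Pericytes or smooth muscle cells were the highest of the named classes, and neutrophils were the lowest at 9809 and 10963.

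Keratinocytes, the epithelial cells of the epidermis and follicle, carried more of these transcripts than macrophages in every library, with 22477, 26311 and 31536 CPM in WT_Ctrl, WT_UV and RP_UV. The RP_UV value was 1.40-fold above WT_Ctrl (1.39-1.41) and 1.20-fold above WT_UV (1.19-1.21). Pericytes or smooth muscle cells held 28552, 27847 and 36745, the highest of the named classes, and there WT_UV and WT_Ctrl did not differ beyond counting error (ratio 0.975, 0.937-1.02).

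Among antigen-presenting cells the order was different. Dendritic cells held 17038, 20402 and 19657 CPM, and Langerhans cells, the dendritic cells of the epidermis, held 15284, 20043 and 17893. In these classes RP_UV lay below WT_UV, by a factor of 1.04 in dendritic cells and 1.12 in Langerhans cells, and above WT_Ctrl in both. The Langerhans values rest on 79, 106 and 32 cells. Dendritic cells had median depths of 17578 UMIs in WT_UV and 5740 in RP_UV, and the sums moved with depth. Split by depth into 3 equal groups, the shallowest of WT_UV (median 10011.5 UMIs) held 16803 and the deepest of RP_UV (median 8297.5 UMIs) held 21344, so the direction turned where depths were closest. Those are the shallow end of WT_UV and the deep end of RP_UV, so they do not hold like cells. The part of depth in the lower RP_UV value was not tested.

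Lymphocytes held 16448, 18280 and 18790 on 354, 706 and 62 cells, and RP_UV and WT_UV did not differ there beyond counting error (ratio 1.03, 0.985-1.07). Mast cells held 15718, 19927 and 22042 on 33, 96 and 43 cells. Neutrophils, known for relying largely on glycolysis, had the lowest sums of any class, 9809 in WT_UV and 10963 in RP_UV, a ratio of 1.12 (1.07-1.17), and WT_Ctrl had too few neutrophils for a value.

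Stromal classes with too few cells in WT_UV could be compared only between RP_UV and WT_Ctrl. Fibroblasts held 14644 in WT_Ctrl and 20023 in RP_UV (1.37-fold, 1.34-1.40), endothelial cells 18491 and 20026 (1.08-fold, 1.06-1.11), and Schwann cells 17751 and 20552 (1.16-fold). The fibroblast class was not alike in the 2 libraries, since its 8 markers summed to 148262 CPM in WT_Ctrl and 44246 in RP_UV. Its part in the member levels was not tested.

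In macrophages, 78 members reached a mean of 10 CPM and were compared gene by gene beside all 7692 genes that did so. Between RP_UV and WT_Ctrl, 73 members were higher and 5 lower, with a median log2 difference of 0.40 against 0.05 over all genes compared. At least 1.5-fold higher were 15 members, where 13.7% of all genes compared were that much higher, and 0 members were 1.5-fold lower, against 10.9% of all genes. Most members thus differed in the same direction by less than 1.5-fold. Other genes with coding lengths under 900 nucleotides, without cytosolic ribosomal proteins, also lay above the all-gene median, at 0.09 to 0.33 by length group. Longer ones had a median of -0.04.

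Between WT_UV and WT_Ctrl, 65 members were higher and 13 lower, with a median of 0.17 against 0.04 over all genes. There were 9 members at least 1.5-fold higher (7.38% of all genes) and 0 lower (3.43%). This direction turned in cells of 3000 to 6000 UMIs, with a median of -0.37, 2 higher (12.4% of all genes) and 19 lower (10%). The median was 0.04 with 4 higher (7.74%) when the limit of 4000 genes per cell was applied to every library. Between RP_UV and WT_UV, 51 members were higher and 27 lower, with a median of 0.28 against -0.02. This comparison had members past the fold on both sides, 7 higher (7.32% of all genes) and 6 lower (9.65%).

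All 5 complexes were higher in RP_UV than in WT_Ctrl macrophages. Complex I, which takes electrons from NADH, held 5421 CPM in WT_Ctrl, 6103 in WT_UV and 7078 in RP_UV, and 35 of its 37 compared members were higher in RP_UV than in WT_Ctrl (median log2 difference 0.41). Complex II, the succinate dehydrogenase that also belongs to the tricarboxylic acid cycle, held 354, 365 and 466, with all 4 members higher in RP_UV than in WT_Ctrl (median 0.47). WT_UV and WT_Ctrl did not differ beyond counting error in complex II (ratio 1.03, 0.990-1.07).

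Complex III, cytochrome c reductase, held 1513, 1911 and 1836 CPM and was the one complex in which RP_UV lay below WT_UV, by a factor of 1.04. Its members Uqcr10, Uqcr11, Uqcrh and Uqcrq have coding lengths of 192, 168, 267 and 246 nucleotides. Members that short were not higher in RP_UV than in WT_UV in any complex, as given with the length groups below. Its 8 members were all higher in WT_UV than in WT_Ctrl (median 0.34), and 7 of 8 were higher in RP_UV than in WT_Ctrl (median 0.37). Complex IV, cytochrome c oxidase, held 4517, 5425 and 5920, and 10 of its 12 compared members were higher in RP_UV than in WT_Ctrl (median 0.34). Between RP_UV and WT_UV only 5 of those 12 were higher (median -0.08), although the sum of the complex was 1.09-fold higher. Short members such as Cox6b2, Cox6c and Cox7c were among those lower in RP_UV.

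Complex V, the ATP synthase, held 4688, 5801 and 6224 CPM. All 17 members were higher in RP_UV than in WT_Ctrl (median 0.43), and 14 of 17 were higher in WT_UV than in WT_Ctrl (median 0.22).

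**Figure D2:**
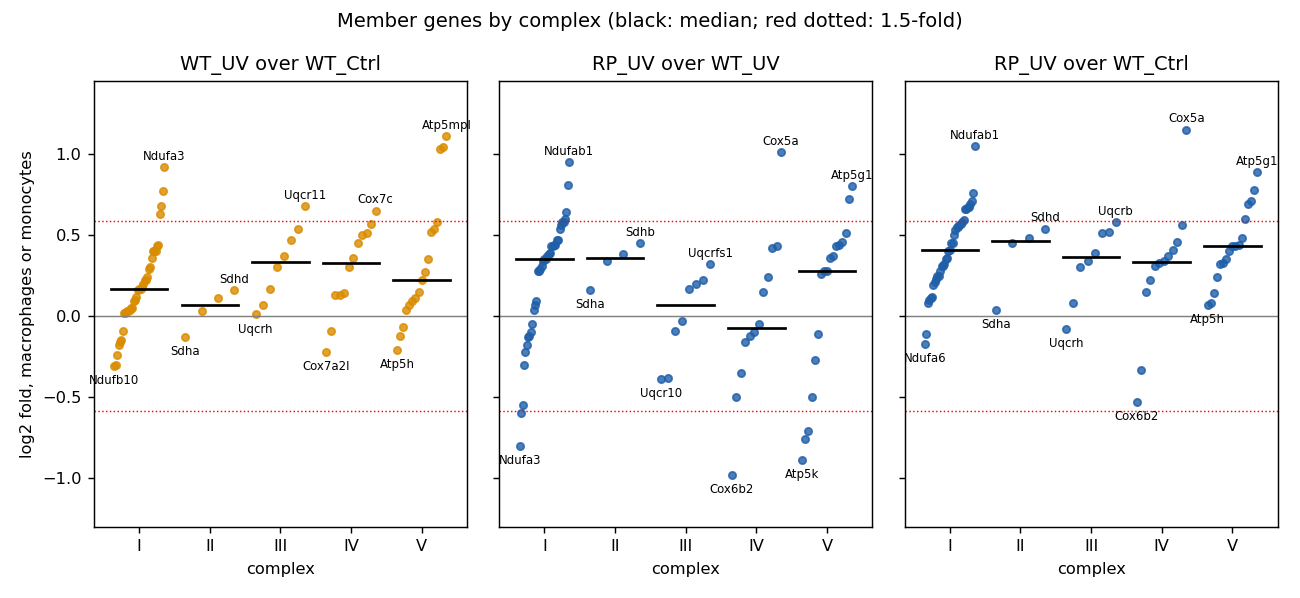
Log2 differences of the 78 members compared in macrophages (y axis), 1 point per gene, grouped by complex I to V (x axis) for each pair of libraries, with the median as a black line and 1.5-fold as red dotted lines. Between RP_UV and WT_Ctrl, 73 of 78 points lie above 0, while between RP_UV and WT_UV they spread to both sides, from Cox5a at 1.01 to Cox6b2 at -0.98.

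Cox5a, a subunit of the matrix side of complex IV, had the largest difference between RP_UV and WT_Ctrl. Macrophages held 343 CPM of Cox5a in WT_Ctrl, 377 in WT_UV and 763 in RP_UV. The 2 wild-type libraries lay close together and RP_UV stood apart, 2.23-fold above WT_Ctrl (2.14-2.32). RP_UV was also highest in keratinocytes, with 362, 360 and 680, and in dendritic cells, with 306, 332 and 513. In lymphocytes the wild-type libraries were not alike, with Cox5a at 406, 336 and 478, and in neutrophils Cox5a stood at 138 in WT_UV and 202 in RP_UV.

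Ndufab1, the mitochondrial acyl carrier protein, is a complex I subunit that also serves in fatty acid and lipoic acid synthesis. Its macrophage levels were 103, 110 and 213, a 2.07-fold difference between RP_UV and WT_Ctrl (1.92-2.24). Keratinocytes held 186, 160 and 363 CPM of Ndufab1, and dendritic cells 100, 98.9 and 153.

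Atp5g1, 1 of 3 genes for the membrane ring subunit c of the ATP synthase, followed with 214, 227 and 397 in macrophages (1.86-fold, RP_UV over WT_Ctrl). The other subunit c genes differed less in log2 terms, with Atp5g3 at 172, 201 and 278 (0.69) and Atp5g2 at 393, 374 and 533 (0.44). Each of the 3 was highest in RP_UV. Atp5b, the catalytic beta subunit, held 254, 324 and 437 (1.72-fold), and Atp5a1, the alpha subunit, 300, 309 and 376 (0.33 on the log2 scale). Atp5d, the delta subunit of the central stalk, held 261, 240 and 395.

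Among the core subunits of complex I, Ndufv1, which carries the NADH binding site, held 54.1, 56.1 and 82.0 CPM in macrophages. Ndufs1 held 30.2, 32.8 and 43.1. Both were highest in RP_UV with the wild-type libraries closer to each other. Ndufs7 and Ndufs8, the iron-sulphur subunits near the quinone site, were instead lowest in WT_UV, at 140, 114 and 174 for Ndufs7 and 85.5, 76.6 and 97.9 for Ndufs8. The accessory subunit Ndufa8 had the same shape, with 119, 100 and 176, as did Ndufb10 with 240, 194 and 253.

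Ndufa9, an accessory subunit at the junction of the arms of complex I, was 1.71-fold higher in RP_UV than in WT_Ctrl, with levels of 44.8, 54.9 and 76.4. Ndufa4, named for complex I but now assigned to complex IV, held 376, 400 and 599 in macrophages (1.59-fold) and 369, 512 and 858 in keratinocytes. It was counted with complex I here, as was its relative Ndufa4l2, since complexes were assigned by symbol.

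Within complex II, the flavoprotein Sdha differed little, with 84.0, 76.9 and 86.2 (0.04 on the log2 scale, RP_UV over WT_Ctrl). The other 3 subunits were higher in RP_UV. Sdhb, the iron-sulphur subunit, held 103, 105 and 144. The membrane anchors held 89.9, 97.0 and 123 for Sdhc and 77.3, 86.3 and 113 for Sdhd. In complex III, the core protein Uqcrc1 held 73.2, 82.5 and 93.1 and the Rieske protein Uqcrfs1 78.8, 82.7 and 104, both highest in RP_UV. Uqcrh, the hinge protein, was nearly level at 449, 453 and 425.

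Members that were lower in RP_UV than in WT_Ctrl were few. Cox7a2l, known for its part in assembling respiratory supercomplexes, was highest in WT_Ctrl, with 332, 286 and 264 in macrophages and 493, 381 and 355 in keratinocytes, a log2 difference of -0.33 in macrophages and -0.47 in keratinocytes between RP_UV and WT_Ctrl. Mast cells had that order too, with 402, 189 and 98.4 on 19, 41 and 7 UMIs, but RP_UV and WT_UV did not differ there beyond counting error (ratio 0.52, 0.197-1.17). Lymphocytes, with 409, 313 and 426, and pericytes, with 204, 316 and 237, did not have that order. Between RP_UV and WT_Ctrl, fibroblasts (ratio 1.02, 0.833-1.24), endothelial cells (0.91, 0.767-1.08) and Schwann cells (0.794, 0.571-1.12) did not differ beyond counting error. The accessory subunits Ndufa6 (194, 263 and 173 in macrophages; log2 -0.17) and Ndufa2 (257, 348 and 238; log2 -0.11) were instead highest in WT_UV, with the other libraries closer together. The other 2 of the 5 were Uqcrh and Cox6b2, an isoform at low level that is taken up with the restricted forms.

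The members with the largest differences of WT_UV over WT_Ctrl encode small proteins. Atp5mpl, a small membrane subunit of the ATP synthase, held 139, 303 and 178 CPM in macrophages, and WT_UV was 2.17-fold above WT_Ctrl (2.04-2.31). Atp5md, another small ATP synthase subunit, held 128, 263 and 160, and Atp5k, the e subunit that takes part in dimer formation, held 155, 318 and 171. In complex I, Ndufa3 held 120, 229 and 131 and Ndufc1 held 122, 210 and 194. Except for Ndufc1, RP_UV lay closer to WT_Ctrl than to WT_UV.

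WT_UV was the highest library for these genes in other classes too. Keratinocytes held 106, 266 and 206 CPM of Atp5mpl and 181, 443 and 293 of Atp5k. Dendritic cells held 153, 303 and 157 of Atp5mpl and 119, 243 and 107 of Ndufa3. Lymphocytes held 105, 268 and 113 of Atp5k and 100, 222 and 104 of Ndufa3. RP_UV lay closer to WT_Ctrl than to WT_UV in each of these, except for Atp5mpl in keratinocytes.

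Macrophages, dendritic cells, lymphocytes and keratinocytes, 4 classes with a value in all libraries, were set side by side for 77 members among 5351 genes. WT_UV was at least 25% above both other libraries in all 4 classes for 5 members, Atp5e, Atp5k, Atp5mpl, Ndufa2 and Ndufa3, against 0.972% of all genes. RP_UV was that far above both others in all 4 classes for 9 members, Atp5d, Atp5g1, Atp5g3, Ndufa12, Ndufa4, Ndufa8, Ndufab1, Ndufb8 and Sdhd, against 2.64% of all genes. Both lists use the lymphocytes, of which RP_UV had 62, and calls there were not all beyond counting error. In RP_UV lymphocytes Atp5g1 rested on 36 UMIs (ratio to WT_Ctrl 1.39, 0.948-1.98) and Atp5g3 on 35 (ratio 1.28, 0.87-1.83). Between RP_UV and WT_Ctrl, 49 of 77 members (63.6%) were higher in all 4 classes, where 20.2% of all genes were, and 1 (1.3%) was lower in all 4, where 14.7% of all genes were. The comparisons share libraries, and so are not independent of each other.

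The members that were highest in WT_UV and those highest in RP_UV differed in coding length, taken from the GENCODE vM39 canonical transcripts. The coding lengths of the members ran from 156 to 2181 nucleotides with a median of 423, against a median of 1296 over all genes compared in macrophages. The 12 members at least 25% above both others in WT_UV macrophages had a median coding length of 202 nucleotides, and the 30 members that were so in RP_UV macrophages had a median of 512. The shares behind these counts were 15.4% and 38.5% of 78 members, against 5.94% and 16.3% of all genes.

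By length, the 6 members under 210 nucleotides had a median log2 difference of 0.67 between WT_UV and WT_Ctrl in macrophages, the 11 members of 210 to 300 nucleotides 0.54, and the 25 of 300 to 450 nucleotides 0.20. The 24 members of 450 to 900 nucleotides had a median of 0.04 and the 12 longer ones 0.18. Between RP_UV and WT_UV the order turned, with medians of -0.50, -0.22, 0.24, 0.43 and 0.36, and 0 of the 17 members under 300 nucleotides were higher in RP_UV. Between RP_UV and WT_Ctrl the medians were 0.22, 0.22, 0.43, 0.43 and 0.52. Other genes in the same length groups, without cytosolic ribosomal proteins, had medians of 0.09, 0.32, 0.33, 0.23 and -0.04 in that comparison. At 210 to 300 nucleotides the other genes thus lay above the members.

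**Figure D3:**
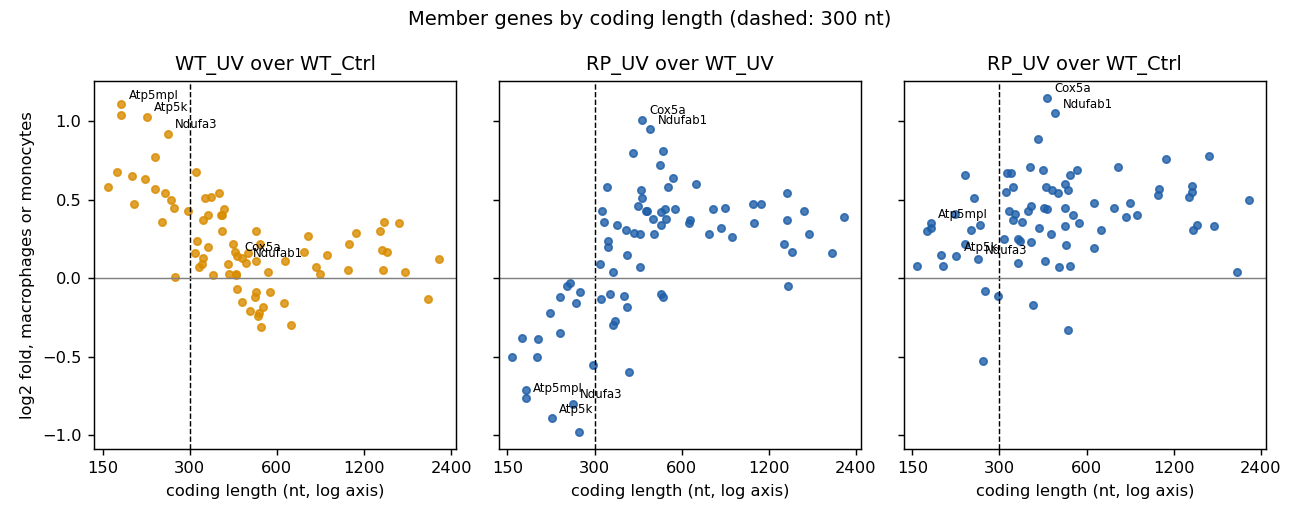
Log2 differences in macrophages (y axis) against coding length in nucleotides (x axis, log scale), 1 point per member, with a dashed line at 300 nucleotides. Between WT_UV and WT_Ctrl the short members lie highest, with a median of 0.67 under 210 nucleotides, and between RP_UV and WT_UV they lie lowest, with a median of -0.50.

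Short genes outside the list did not all behave alike. Among other genes under 210 nucleotides, without cytosolic ribosomal proteins, the median difference between WT_UV and WT_Ctrl was 0.14 over 27 genes, and it was 0.10 over 107 genes of 210 to 300 nucleotides. The 8 cytosolic ribosomal protein genes of 210 to 300 nucleotides had a median of 0.68 between WT_UV and WT_Ctrl and of -1.08 between RP_UV and WT_UV. Between RP_UV and WT_UV the other genes had medians of 0.04 under 210 nucleotides and 0.27 at 210 to 300, where the members had -0.50 and -0.22. At 300 to 450 nucleotides they were close, with 0.28 over the other genes and 0.24 over the members. In the 2 longer groups the other genes had 0.19 and -0.10, where the members had 0.43 and 0.36. Coding length, raw-file code and depth all moved with the high levels of the short members in WT_UV, and their parts in them were not tested.

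The summed member level also moved with the depth of the cell. Splitting the macrophages of each library into 3 equal groups by depth, the sum went from 14077 in the shallowest to 17586 in the deepest cells of WT_Ctrl, from 14433 to 21412 in WT_UV and from 18004 to 23299 in RP_UV. At matched depth the order of the wild-type libraries turned. In cells of 3000 to 6000 UMIs the sums were 16465 in WT_Ctrl (1125 cells), 13014 in WT_UV (335 cells) and 19681 in RP_UV (1108 cells).

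The bands on either side had the same order, with 14154, 12914 and 17238 in cells of 1000 to 3000 UMIs and 17976, 17511 and 22480 in cells of 6000 to 12000 UMIs. RP_UV was thus the highest library in all 3 bands, and the higher sum of WT_UV over WT_Ctrl was not seen at matched depth. In each band RP_UV lay above WT_Ctrl by a smaller ratio than over all macrophages. A cell of a given depth is a shallow cell in WT_UV and a typical or deep one in the other libraries, so the bands do not hold like cells.

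**Figure D4:**
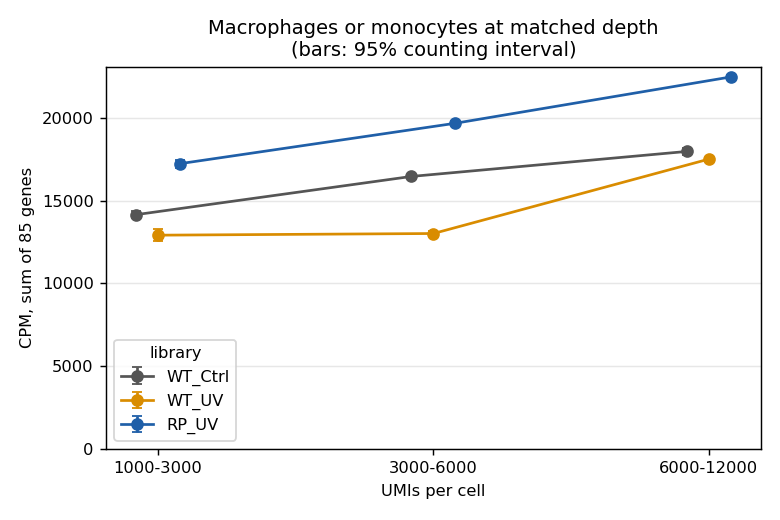
Summed level of the 85 genes in macrophages (y axis, CPM) for cells in 3 bands of UMIs per cell (x axis), with 95% counting intervals. RP_UV is highest in each band, at 17238, 19681 and 22480, and WT_UV is lowest in each, at 12914, 13014 and 17511.

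The macrophage class showed all 10 of its markers in each library, summing to 21240, 18930 and 27408 CPM. Other markers in the class also moved with the groups. The 9 neutrophil markers summed to 236, 124 and 468, the 11 keratinocyte markers to 228, 220 and 323, the 11 dendritic cell markers to 2384, 1392 and 707, and the 4 red cell markers to 1.22, 0.826 and 136. Their part in the member levels was not tested. Single macrophage clusters ranged in summed member level from 6133 to 18605 in WT_Ctrl, from 8609 to 23305 in WT_UV and from 17702 to 24715 in RP_UV. The range of WT_UV overlapped widely with both others, while those of WT_Ctrl and RP_UV met only between 17702 and 18605.

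In keratinocytes, all genes compared (7424) lay slightly lower in WT_UV than in WT_Ctrl, at a median log2 difference of -0.14, and the members are read against that shift. Their median was 0.15 between WT_UV and WT_Ctrl, with 15 of 78 at least 1.5-fold higher (4.97% of all genes) and 0 lower (9.02%). Between RP_UV and WT_UV the median was 0.39 against 0.07 over all genes, with 20 members past the fold upward (15.4%) and 3 downward (10.5%). Between RP_UV and WT_Ctrl the median was 0.52 against -0.05, with 25 members higher (14.8%) and 1 lower (18%).

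Keratinocytes had their own leading members. Ndufa4 had the largest difference between RP_UV and WT_Ctrl (2.33-fold), followed by Uqcrq, a small subunit of complex III, with 226, 387 and 521 CPM, and by the complex I subunit Ndufb7 with 123, 147 and 271. Uqcrq differed between all 3 libraries, whereas the wild-type libraries lay closer together for Ndufb7. The member furthest below its WT_Ctrl level in RP_UV was Ndufa4l2.

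In dendritic cells (7149 genes compared), 16 members were at least 1.5-fold higher in WT_UV than in WT_Ctrl (8.29% of all genes) and 0 lower (3.73%). Between RP_UV and WT_UV, 2 were higher (8.07%) and 10 lower (13.7%). Between RP_UV and WT_Ctrl, 8 were higher (15.2%) and 0 lower (14.9%), and the median was 0.27 against 0.04 over all genes. In neutrophils the median between RP_UV and WT_UV was 0.25 against -0.13, in fibroblasts between RP_UV and WT_Ctrl 0.58 against 0.20, in endothelial cells 0.10 against -0.10, in Schwann cells 0.20 against -0.07, and in pericytes 0.37 against -0.15. In each of these classes the members lay above the median of all genes.

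A few members are isoforms with a restricted distribution, and their levels differed more between classes than those of the common subunits. Ndufa4l2, a relative of Ndufa4 that is known to be induced by hypoxia through HIF-1, was a keratinocyte and stromal transcript here. Keratinocytes held 543 CPM of Ndufa4l2 in WT_Ctrl (527-560), 477 in WT_UV (460-493) and 218 in RP_UV (208-228). At least 1 UMI of it was found in 61.2%, 52.4% and 29.6% of keratinocytes, against 3.78%, 5.69% and 1.68% of macrophages, at median depths of 6119, 9833 and 6020 UMIs in keratinocytes and 3819, 10734 and 4661 in macrophages. Ndufa4l2 and Ndufa4 thus ran in opposite orders over the libraries in keratinocytes.

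In fibroblasts, Ndufa4l2 stood at 740 in WT_Ctrl (957 UMIs) and 20.9 in RP_UV (14 UMIs). Among the WT_Ctrl clusters the level was highest in 79 cells led by Col1a1, at 1296 CPM of Ndufa4l2, and a Col1a1-expressing cluster of 73 cells in RP_UV that stayed unnamed held 171. Different clusters made up the class in the 2 libraries. Pericytes held 624, 180 and 1101 CPM of Ndufa4l2 on 49, 36 and 68 cells, and endothelial cells 135 in WT_Ctrl and 29.9 in RP_UV.

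Cox4i2, the alternative form of the regulatory complex IV subunit Cox4i1, was found in pericytes, at 266, 87.3 and 248 CPM, and at 75.9 in endothelial cells of WT_Ctrl and 4.99 in those of RP_UV. Macrophages had 2, 6 and 15 UMIs of Cox4i2 in all, levels of 0.243, 0.191 and 1.11. An unnamed cluster of 114 cells in RP_UV, with 3618 CPM of the pericyte gene Rgs5 and 1278 of the skeletal muscle actin Acta1, held 668 of Cox4i2 and 1104 of Ndufa4l2, and also held the muscle isoforms Cox6a2 at 127 and Cox8b at 57.9. The common Cox4i1 was present throughout, with 914, 859 and 1152 in macrophages.

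Cox6b2, known as the testis form of Cox6b1, stood at 64.3, 63.3 and 46.4 CPM in dendritic cells and at 10.6, 14.8 and 7.03 in macrophages. Pericytes held 43.2, 49.1 and 26 on 7 to 9 UMIs per library, and Langerhans cells 14, 25.5 and 12.2 on 6, 44 and 2 UMIs. Mast cells had 7 UMIs of Cox6b2 in WT_UV, a level of 32.3, and 0 in the other libraries. Those counts of 0 have intervals up to 78 CPM in WT_Ctrl and 51.9 in RP_UV, so they do not show a lower level. The macrophage value in RP_UV rests on 95 UMIs and lay below WT_UV by a factor of 2.11 (1.69-2.66). In macrophages the dendritic cell markers were lowest in RP_UV too, as given above, and their part in this value was not tested. Cox7a1, a heart and muscle form, was highest in pericytes at 37.1, 43.6 and 22.2, on 6, 8 and 6 UMIs. In RP_UV the pericyte value lay within the counting interval of Schwann cells, which held 12.6 (4.62-27.4). Cox7b2 and Cox8c, forms known from testis, had 0 UMIs in macrophages of any library.

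**Figure D5:**
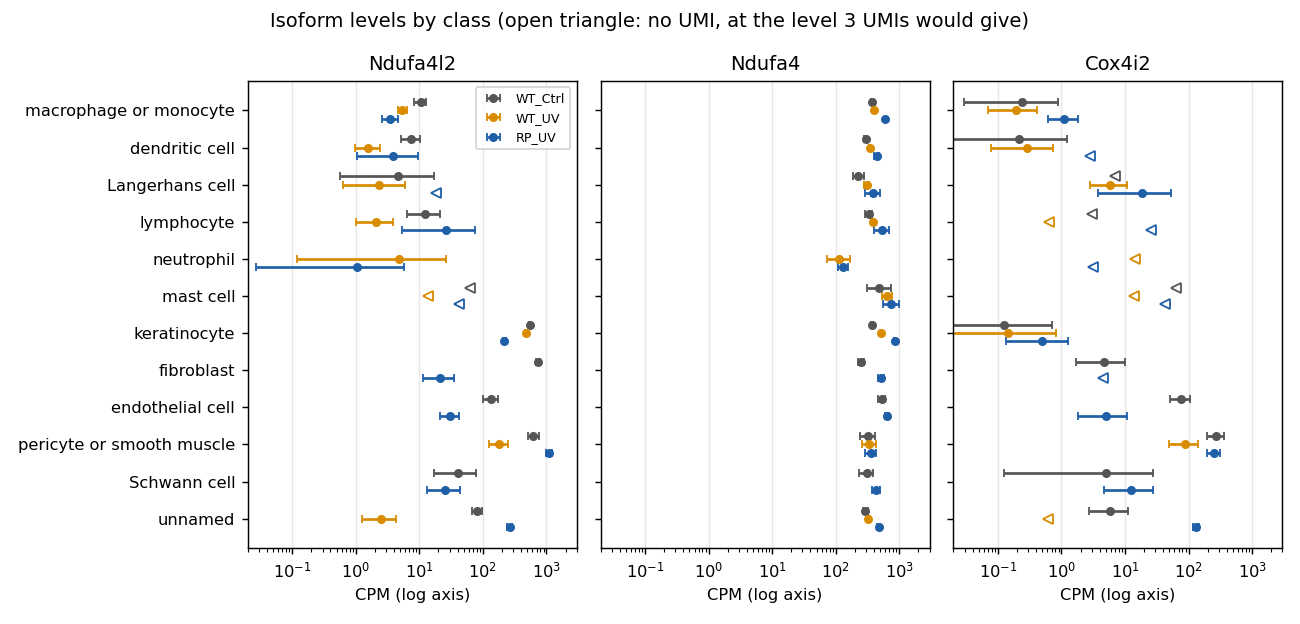
Levels of Ndufa4l2, Ndufa4 and Cox4i2 in CPM (x axis, log scale) by cell class (y axis) and library, with 95% counting intervals and an open triangle, at the level of 3 UMIs, where there was no UMI. In keratinocytes Ndufa4l2 is lowest in RP_UV, at 218 against 543 in WT_Ctrl, and Ndufa4 is highest there, at 858 against 369.

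Other mitochondrial genes were summed in macrophages for comparison. The 13 subunits encoded by mitochondrial DNA held 26520 CPM in WT_Ctrl, 27427 in WT_UV and 34678 in RP_UV, and 12 of 13 were higher in RP_UV than in WT_Ctrl (median log2 difference 0.32). Mitochondrial ribosomal proteins, which translate those subunits, held 3794, 4169 and 5397, and 73 of the 76 compared were higher in RP_UV than in WT_Ctrl (median 0.50), 27 of them at least 1.5-fold. Nuclear and mitochondrial subunits of the respiratory chain thus both stood 1.31-fold higher in RP_UV than in WT_Ctrl. The filter on mitochondrial share limits the mitochondrially encoded sum. A share of 10% or more was found in 450 WT_Ctrl, 716 WT_UV and 953 RP_UV cells of any class, which were left out. The part of this filter in the sum was not tested.

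Enzymes of the tricarboxylic acid cycle held 776, 823 and 1033, with 12 of 13 higher in RP_UV than in WT_Ctrl. Carriers, which include cytochrome c and the ADP/ATP translocases, held 1582, 1849 and 2268, with 7 of 8 higher. Assembly factors of the complexes held 989, 1046 and 1149, with 13 of 20 higher, and transcriptional regulators such as Nrf1, Gabpa and Tfam held 174, 198 and 195, with 2 of 6 higher and a median of -0.08. The subunits thus differed between RP_UV and WT_Ctrl by more than the regulators did, in log2 medians.

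Outside the mitochondrion, proteasome subunits held 3369, 3043 and 4181 and were 1.24-fold higher in RP_UV than in WT_Ctrl (median 0.55, 13 of 17 higher). Cytosolic ribosomal proteins, the most abundant group, held 140042, 142210 and 127603 and were lower in RP_UV than in WT_Ctrl by a factor of 1.10 (median -0.12). In keratinocytes, mitochondrially encoded subunits did not follow the nuclear ones, with 30449, 24008 and 32643 CPM against 22477, 26311 and 31536.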

How the data were processed

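For each of 3 libraries the authors deposited a matrix of raw UMI counts, made with Cell Ranger 6.1.1 per the file headers and named as mm10 in the submitters' notes, without normalization. Cells were kept as in the study's methods (mitochondrial share under 10%, over 200 genes, under 4000 genes or 6000 in WT_UV), which left 25795684, 64556621 and 29128981 UMIs in WT_Ctrl, WT_UV and RP_UV. No doublets were removed, since the methods name no caller.

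Each library was clustered alone (2000 variable genes, 30 components, 15 neighbours, Leiden resolution 1.5) and clusters were named from marker panels. The score limit of 0.6 and lead of 0.08 were set after clusters had been seen. A class needed 30 cells in a library.

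Counts were summed per class and scaled to 1000000. Intervals are 95% exact Poisson, or Clopper-Pearson for ratios. Single genes were compared on log2(CPM + 1) where their mean over the 3 libraries was at least 10, and a call was a 1.5-fold difference on that scale. No test was possible with 1 library per group. Named genes were the 5 highest and 5 lowest members per comparison in macrophages, the core subunits, and restricted isoforms with their common partners. The values of 1 core subunit are not reported here. Leading members of other classes, cross-class patterns, length groups, depth bands and clusters were chosen after their values were seen. The members and lists were chosen with earlier results of these data known. Promoters were searched for motifs with letters chosen by name, and the NRF-1 motif was cut to its 8 central letters after a longer form had been searched. The fold and interval code was checked on simulated counts. Python 3.11.15, numpy 2.4.6, scipy 1.17.1, scikit-learn 1.9.0, igraph 0.11.9, leidenalg 0.10.2 and matplotlib 3.10.9 were used.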

Additional observations from a re-analysis of the deposited data

Results flagged for a closer look

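The difference of the summed member level between RP_UV and WT_UV had the opposite direction in antigen-presenting classes to that in macrophages. On the log2 scale it was 0.13 in macrophages, -0.05 in dendritic cells and -0.16 in Langerhans cells. Each class is 1 value per library, and the difference between the classes was not tested. In dendritic cells it turned where depths were closest, since the shallowest of 3 equal groups of WT_UV cells (median 10011.5 UMIs) held 16803 CPM and the deepest of RP_UV (median 8297.5 UMIs) held 21344. These groups are opposite ends of their libraries and do not hold like cells, and the part of depth was not tested.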

How the results depend on the processing

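No paired analysis was possible because each group had 1 library. Of 171 values under alternatives, 103 stayed within the replaced value's counting interval or 1.5 times the count, 66 moved and 2 reversed. Restriction to coding lengths of at least 300 nucleotides, to cells of 3000 to 6000 UMIs and to macrophage clusters over 2000 UMIs was chosen after the data had been seen. Values below are log2 differences of sums unless called counts or medians, and the causes of the moves were not tested unless the alternative's construction shows them.

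WT_UV over WT_Ctrl (all cells 0.14, macrophages 0.25, median 0.17, 9 members higher and 0 lower) reversed in cells of 3000 to 6000 UMIs, with -0.34, a median of -0.37, and 2 higher and 19 lower (12.4% and 10% of all genes, against 7.38% and 3.43% in the reported values). A limit of 4000 genes in every library gave 0.04, 0.12, a median of 0.04 and 4 higher (7.74%), and coding lengths of at least 300 gave 0.00, 0.12 and 1 higher. In all cells, leaving out mitochondrially encoded and ribosomal genes gave 0.11, the all-gene median as reference 0.13 and means over cells 0.11. In macrophages, joint clustering gave 0.23, own-marker classes 0.28 and 16 higher (13%), no cell filter 0.26, the all-gene median as reference 0.21, means over cells 0.19, dropping the deepest 5% of cells 0.22, a limit of 25% (as a ratio, in place of 1.5-fold) 27 higher (18.1% of all genes), and no low-value filter 2 lower.

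RP_UV over WT_UV (0.24, 0.13, median 0.28, 7 higher and 6 lower) kept its direction. All cells gave 0.34 with 4000 genes, 0.27 unfiltered, 0.22 without mitochondrial and ribosomal genes, 0.21 against the all-gene median, 0.22 by means over cells, 0.19 without the deepest cells and 0.42 at 300 nucleotides or more. Macrophages gave 0.12 by own markers, unfiltered, without mitochondrial and ribosomal genes and without shallow clusters, 0.15 against the all-gene median, 0.20 by means over cells, 0.26 with 4000 genes (median 0.40, 16 higher, 11.3% of all genes), 0.32 at 300 nucleotides or more (median 0.35, 1 lower) and 0.60 in the depth band (median 0.67, 42 higher and 2 lower, against 19.4% and 16.8% of all genes there and 7.32% and 9.65% in the reported values). The 25% limit gave 34 higher and 12 lower (21.3% and 22.9% of all genes).

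RP_UV over WT_Ctrl (0.38, 0.38, median 0.40, 15 higher and 0 lower) kept its direction. All cells gave 0.42 unfiltered, 0.33 without mitochondrial and ribosomal genes, by means over cells and without the deepest cells, 0.34 against the all-gene median and 0.41 at 300 nucleotides or more. Macrophages gave 0.36 by joint clustering (1 lower) and without the deepest cells, 0.40 by own markers (27 higher, 18.9% of all genes, against 13.7%), 0.34 against the all-gene median, 0.44 at 300 nucleotides or more, 0.26 in the depth band (median 0.28) and 0.37 without shallow clusters (1 lower). The 25% limit gave 49 higher and 2 lower (28.5% and 22.8% of all genes), and no low-value filter 2 lower.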
